A study of Mus musculus with 6 samples.

Results

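The mitochondrial ribosomal protein genes were the rows of the deposited expression table whose symbol is Mrpl or Mrps followed by a number and at most 1 letter. There were 78 such genes among 55291, 49 named Mrpl and 29 named Mrps, and 6 pseudogene rows with names ending in -ps were left out. They were measured by RNA sequencing of polyadenylated RNA from 6 liver tumours of the RIL-175/PD-1R mouse line, RIL-175 being a mouse hepatocellular carcinoma line. In the group MKO_PD1 the tumours came from 3 TREM2-MKO mice, taken here as lacking Trem2 in myeloid cells. In the group Cre_PD1 they came from 3 LysM-Cre mice, which carry the recombinase without that deletion. LysM-Cre expresses Cre from the lysozyme locus, so a deletion made with it is meant for macrophages, monocytes and neutrophils and not for the tumour cells that make up much of such a tissue. All mice had received anti-PD-1 antibody. Strain, sex, age, dose and time are not given in the sources used here.

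Mitochondria translate the small set of proteins encoded in their own DNA on ribosomes of their own, and every protein of these ribosomes is encoded in the nucleus, made in the cytosol and imported. The small subunit reads the messenger RNA. The large subunit forms the peptide bond and passes the new protein through an exit tunnel towards the inner membrane, where nearly all products become core subunits of the respiratory chain. Part of the mitoribosome descends from bacterial ribosomal proteins, and the rest consists of proteins that mitochondria added. Liver cells are rich in mitochondria.

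By role, 51 members belong to the large subunit, 30 of them of bacterial type and 21 particular to mitochondria. Those particular to mitochondria include Mrps30 and Mrps18a, which carry small-subunit names. The small subunit has 26 members, 16 of bacterial type and 10 particular to mitochondria. The remaining member, Mrps36, keeps a ribosomal name but is known as a subunit of the 2-oxoglutarate dehydrogenase complex. The members lie on 17 chromosomes, with at most 11 on 1 chromosome, chromosome 11 (GENCODE M21 on GRCm38, the same assembly as mm10).

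Values were rescaled so that each library summed to 1000000, which makes them TPM, a level per length of exon. Of the 78 members, 77 passed the filter of at least 1 TPM in at least 3 libraries and entered a limma fit over 16506 genes on log2(TPM + 1). Differences are MKO_PD1 minus Cre_PD1 on that scale, with a standard error (SE). Adjusted p-values are Benjamini-Hochberg values from this fit over all 16506 genes, and p-values measure only the spread between these 6 tumours. Where no value of one group reached into the range of the other, the groups are called separate. Because the tumours are bulk tissue, fewer cells of a type and less RNA per cell cannot be told apart.

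Recovered reads per library numbered from 26747236 to 34264909, so that 1 read on 1 kb of exon amounted to 0.0763 to 0.114 TPM. Trem2 measured 7.68, 17.97 and 6.81 TPM in MKO_PD1 tumours, against 10.54, 16.5 and 14.9 TPM in Cre_PD1 tumours. The library labelled MKO_PD1 replicate 2 thus held more Trem2 RNA than any Cre_PD1 library. It also held the largest macrophage marker share, given below, so its Trem2 level in bulk tissue does not settle whether the label is right. Which exons were deleted is not given in the sources used here. The log2 difference of Trem2 was -0.44 (SE 0.40, limma adjusted p = 0.432). Hepatocyte markers, 24 genes such as albumin of which none was at 0, took up 16.1%, 4.30% and 11.8% of all TPM in MKO_PD1 tumours, against 1.80%, 3.29% and 3.28% in Cre_PD1 tumours. Tumour epithelium markers, 9 genes, took up 0.248% to 0.987% in MKO_PD1 tumours and 1.81% to 2.47% in Cre_PD1 tumours. The 10 proliferation genes took up 0.0123% to 0.0577% in MKO_PD1 tumours and 0.0620% to 0.0693% in Cre_PD1 tumours. Neutrophil markers, 11 genes, took up 0.0297% to 0.121% in MKO_PD1 tumours and 0.0117% to 0.0239% in Cre_PD1 tumours, and 8 endothelial genes 0.0208% to 0.0263% in MKO_PD1 tumours and 0.0112% to 0.0152% in Cre_PD1 tumours. None of these 5 marker sums overlapped between the groups. Macrophage markers, 14 genes, ranged from 0.372% to 0.786% in MKO_PD1 tumours and from 0.314% to 0.409% in Cre_PD1 tumours, with the highest value in the library labelled MKO_PD1 replicate 2. The part of tissue composition in the differences below was not tested, beyond the alternative scales and a fit with the hepatocyte level as a covariate.

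To show the kind of DNA these genes are read from, bases before the RefSeq start (GRCm38.p6) are printed, outside every GENCODE exon. They are given for Mrpl45, the member with the largest difference, and for 2 others of the 8 lower members with the smallest p-values. Mrpl9 and Mrps22 serve as examples of a start region with a motif of NRF1 or of GABPA, factors known for driving nuclear genes of mitochondria. Capitals mark a match to GCGCATGCG (NRF1), CCGGAAGT (GABPA) or GGGCGG (SP1), on either strand. Mrpl45 comes from chr11:97315466-97315715 on the plus strand, Mrpl9 from chr3:94443086-94443317 on the plus strand and Mrps22 from chr9:98601680-98601929 on the minus strand, all written 5′ to 3′ along the gene.
Mrpl45: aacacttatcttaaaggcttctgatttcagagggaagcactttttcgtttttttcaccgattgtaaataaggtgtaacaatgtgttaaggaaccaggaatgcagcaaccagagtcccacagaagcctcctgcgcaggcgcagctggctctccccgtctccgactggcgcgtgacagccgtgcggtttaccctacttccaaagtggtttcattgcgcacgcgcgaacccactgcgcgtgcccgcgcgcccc
Mrpl9: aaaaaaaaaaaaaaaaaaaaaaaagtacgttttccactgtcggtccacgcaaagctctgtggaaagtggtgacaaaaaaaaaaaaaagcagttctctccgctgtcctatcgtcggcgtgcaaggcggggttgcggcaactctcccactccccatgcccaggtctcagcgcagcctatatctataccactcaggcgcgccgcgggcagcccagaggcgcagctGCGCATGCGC
Mrps22: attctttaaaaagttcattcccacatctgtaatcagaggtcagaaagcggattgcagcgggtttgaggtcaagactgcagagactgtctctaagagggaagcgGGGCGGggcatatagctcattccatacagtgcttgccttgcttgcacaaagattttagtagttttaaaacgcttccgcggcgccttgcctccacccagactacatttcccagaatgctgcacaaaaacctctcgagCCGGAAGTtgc

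The stretch of Mrpl45 held none of the motifs searched. That of Mrpl9, whose last printed base is at -19 from the RefSeq start, ended in an NRF1 motif. That of Mrps22 held an SP1 motif and, close to the start, a GABPA motif. Windows from 250 bases before to 50 bases after the start were at hand for 69 members and 11267 tested genes. GABPA motifs lay in 12 of the 69 members (17.4%) against 8.33% of all these genes, and the YY1 motif AAGATGGCG in 8 (11.6%) against 3.23%. NRF1 motifs lay in 7 (10.1%) against 3.65%, Mrpl22 among them. Mrpl36 held a YY1 motif. These forms of the NRF1 and YY1 motifs were chosen after forms 1 base longer had been counted, which lay in 3 members (4.35%) against 2.07% of genes for NRF1 and in 5 members (7.25%) against 2.15% for YY1. SP1 motifs lay in 34 members (49.3%) against 64.4% of genes, the E-box CACGTG in 5 (7.25%) against 11.2% and the TATA box TATAAA in 5 (7.25%) against 10%. These counts describe letters in a window and say nothing of binding. All were counted on both strands, and none of the 6 motifs contains another.

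Mitochondrial ribosomal protein RNA took up a smaller share of the RNA of MKO_PD1 tumours than of Cre_PD1 tumours on the TPM scale. Summed over all members, the level was 2812, 3544 and 2850 TPM in MKO_PD1 tumours, against 3896, 3972 and 3751 TPM in Cre_PD1 tumours. No MKO_PD1 tumour reached the lowest Cre_PD1 tumour. As a share of all TPM this was 0.307 ± 0.0413% in MKO_PD1 tumours and 0.387 ± 0.0112% in Cre_PD1 tumours (SD, n = 3 each), a ratio of 0.792. The library labelled MKO_PD1 replicate 2 came closest to the Cre_PD1 range, and it was also the MKO_PD1 library with the smallest hepatocyte share. With the hepatocyte list and all mitochondrially encoded genes taken out before rescaling, the share was 0.365%, 0.390% and 0.346% in MKO_PD1 tumours, against 0.408%, 0.427% and 0.405% in Cre_PD1 tumours. The groups still did not overlap, and the ratio moved to 0.888.

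**Figure D1:**
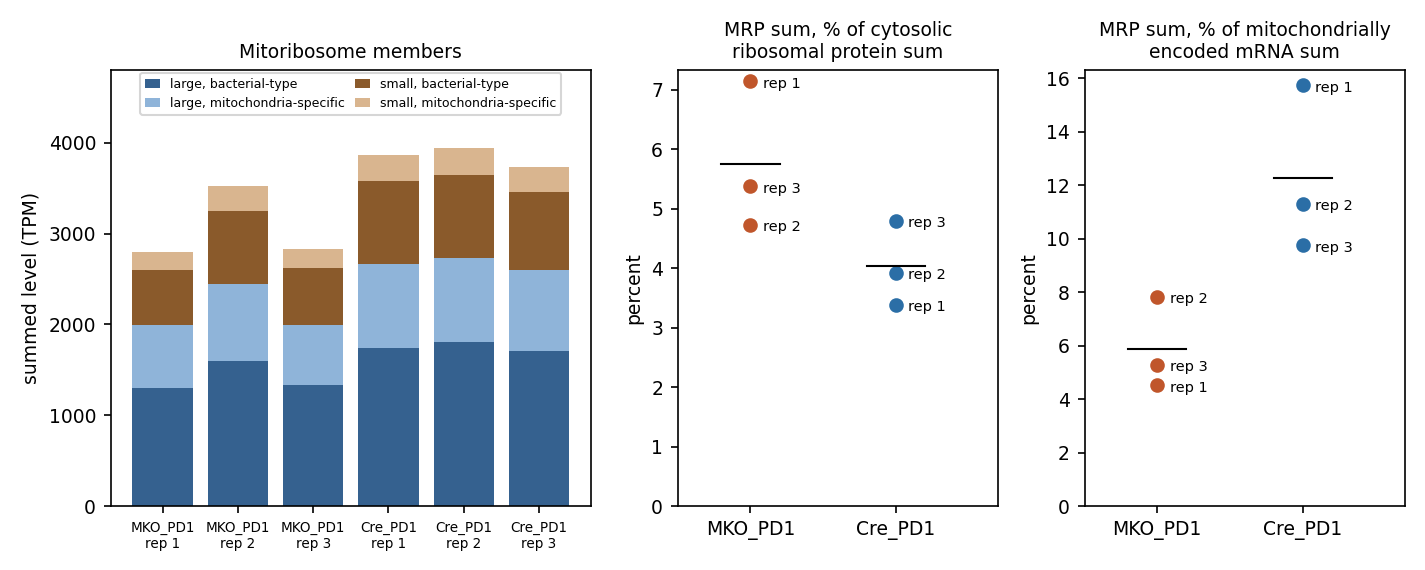
Left, summed TPM of the members per library, stacked by subunit and origin and leaving out Mrps36; right, the sum of all members as a percent of the summed cytosolic ribosomal protein genes and of the summed mitochondrially encoded mRNAs, with 1 point per library and a line at the mean of 3. The stacks of the 3 MKO_PD1 libraries are shorter than those of the 3 Cre_PD1 libraries, the percents of cytosolic ribosomal protein overlap between the groups, and the percents of mitochondrial mRNA do not.

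All 4 classes of members had a lower sum in MKO_PD1 tumours on the TPM scale. The ratio of MKO_PD1 to Cre_PD1 means was 0.804 for large-subunit proteins of bacterial type and 0.808 for large-subunit proteins particular to mitochondria. It was 0.756 for small-subunit proteins of bacterial type and 0.788 for the others of that subunit. The summed large subunit stood at 2.38 ± 0.0963 times the small subunit in MKO_PD1 tumours and at 2.25 ± 0.0366 times in Cre_PD1 tumours (SD, n = 3 each). Members of bacterial type stood at 2.16 ± 0.0459 times those particular to mitochondria in MKO_PD1 tumours and at 2.20 ± 0.0380 times in Cre_PD1 tumours. The groups overlapped for both of these ratios.

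No single member passed the limma test at an adjusted p of 0.05, where 2 of 16506 genes did (0.0121%), 1 in each direction (0.00606% each), and none passed by limma voom on the recovered reads. At an unadjusted p of 0.05, 11 members (14.3%) were lower and 0 higher, against 19.5% of all tested genes lower and 8.47% higher. On the TPM scale 74 of the 77 tested members had a difference below 0, against 72.9% of all genes. The groups were separate with MKO_PD1 lower for 36 members (46.8%), against 28.9% of all genes, and with MKO_PD1 higher for 1 member (1.30%), against 10.1% of all genes. The groups overlapped for 40 members. The median difference of the members was -0.35, with quartiles of -0.51 and -0.20 and a range of -0.97 to 0.54. The median of all tested genes was -0.42. Which of these 2 medians was lower depended on the setting. With no filter on low values the members stood at -0.35 and all genes at -0.10. Without MKO_PD1 replicate 1 the members stood at -0.28 and all genes at -0.20, and without Cre_PD1 replicate 3 both stood at -0.39. With the hepatocyte level as a covariate, a fit added after the values were seen, the members stood at -0.12 and all genes at -0.017.

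That offset depended on the scale. When libraries were scaled by median-of-ratios size factors, the median of all genes moved to -0.012 and that of the members to 0.11, with 52 members above 0 and 25 below. On that scale the groups were separate with MKO_PD1 lower for 5 members, Mrpl45, Mrpl21, Mrps6, Mrpl49 and Mrpl3, against 21.1% of all genes. They were separate with MKO_PD1 higher for 3 members, Mrpl36, Mrpl4 and Mrpl48, against 18.9% of all genes. The direction of the list as a whole therefore cannot be stated apart from the scale. Mrpl49, Mrpl3, Mrpl4 and Mrpl48 are named here because these counts are small, after their values were seen.

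**Figure D2:**
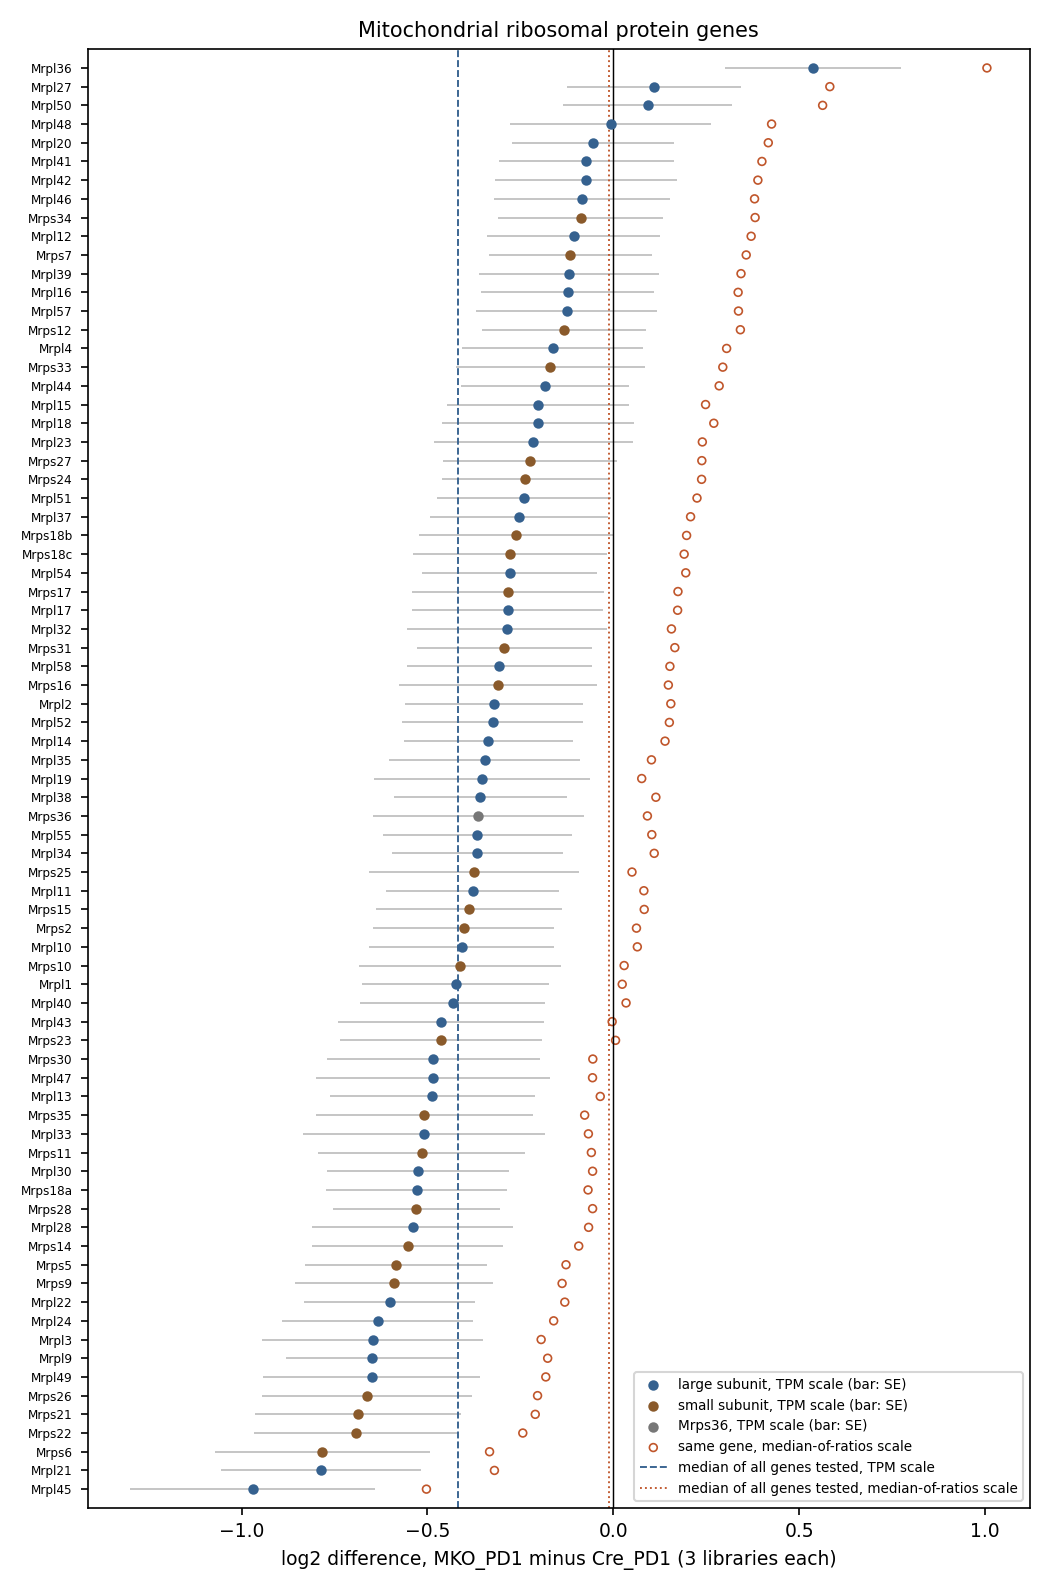
Log2 difference of each of the 77 tested members, MKO_PD1 minus Cre_PD1, on the TPM scale (filled, bars are 1 SE) and on the median-of-ratios scale (open), with the medians of all tested genes as vertical lines. Mrpl36 stands highest and Mrpl45 lowest on both scales, while most members lie below 0 on the TPM scale and 52 lie above 0 on the other.

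How many members passed depended on the library labelled MKO_PD1 replicate 2, the one with more Trem2 RNA than any Cre_PD1 library. It was the highest MKO_PD1 library for 71 of the 77 members. MKO_PD1 replicate 1 was the lowest of all 6 libraries for 51 members, MKO_PD1 replicate 3 for 22, and a Cre_PD1 library for 2. The median coefficient of variation of a member was 15.9% among MKO_PD1 tumours and 6.83% among Cre_PD1 tumours, and the SD was larger among MKO_PD1 tumours for 66 members. Without that library, 24 members passed the limma test, all lower in MKO_PD1, 67 were separate with MKO_PD1 lower and 2 with MKO_PD1 higher. Of the 15940 genes then tested, 38% passed lower and 7.88% higher, 7314 in all, while 62.1% were separate and lower and 14.1% separate and higher. The median was then -0.46 for the members and -0.66 for all genes. Mrpl45, Mrps6, Mrpl21 and Mrps21 shared the lowest adjusted p of 0.0290 (limma), with differences of -1.23, -0.99, -0.97 and -0.90. With only that library left in its group, a comparison added after the values were seen, no member passed and the median difference of the members was -0.086.

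Levels spanned a wide range, from Mrpl12 at a mean of 169 TPM to Mrps25 at 8.16 TPM among members above 0, a ratio of 20.7. The median member stood at 29.1 TPM. There were 6 members at 100 TPM or more, 66 from 10 to 100 TPM and 5 below 10 TPM, and the 5 most abundant made up 20.9% of the summed level. The annotated exon lengths run from 607 to 8631 bases. Since a level is reads divided by that length, a gene with a long annotated exon union shows a low level for the same number of reads. Each member above 0 had between 199 and 3735 reads per library.

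Mrpl12 forms the stalk to which translation factors bind. It measured 186, 156 and 147 TPM in MKO_PD1 tumours, against 172, 188 and 165 TPM in Cre_PD1 tumours. The groups overlapped, and the difference of -0.11 on the TPM scale (SE 0.23, limma adjusted p = 0.748) was 0.37 on the median-of-ratios scale. Mrps21, a small-subunit protein of bacterial type, came next in level. It measured 92.9, 167 and 121 TPM in MKO_PD1 tumours, against 198, 203 and 196 TPM in Cre_PD1 tumours. Every MKO_PD1 tumour lay below the Cre_PD1 tumours, which stood close together, with a difference of -0.69 (SE 0.28, limma adjusted p = 0.169). The other 3 of the 5 most abundant members differed less than Mrps21. Mrpl34, of bacterial type, averaged 128 ± 16.7 TPM in MKO_PD1 tumours and 165 ± 5.92 TPM in Cre_PD1 tumours. Mrpl14, a bacterial-type protein of the large subunit, averaged 112 ± 11.5 TPM and Mrpl52, particular to mitochondria, 106 ± 16.7 TPM in MKO_PD1 tumours, against 141 ± 9.59 TPM and 132 ± 15.7 TPM in Cre_PD1 tumours (SD, n = 3 each). Their differences of -0.37, -0.34 and -0.32 on the TPM scale were 0.11, 0.14 and 0.15 on the median-of-ratios scale. In TPM the groups of Mrpl34 and Mrpl14 were separate with MKO_PD1 lower, and those of Mrpl52 overlapped. On the median-of-ratios scale all 3 overlapped.

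Mrpl45 (ENSMUSG00000018882.12, chromosome 11, 97315716 to 97329920, plus strand, 8 exons after merging overlaps) sits at the tunnel exit and anchors the mitoribosome to the inner membrane. It had the largest difference of all members, measuring 24.0, 53.3 and 38.2 TPM in MKO_PD1 tumours, against 86.8, 70.9 and 62.5 TPM in Cre_PD1 tumours. All MKO_PD1 tumours lay below all Cre_PD1 tumours. The log2 difference was -0.97 (SE 0.33, limma adjusted p = 0.168), a fold of 0.510. It was -0.50 on the median-of-ratios scale and -0.63 when libraries were scaled to the summed level of the members, so Mrpl45 was low relative to the other members too.

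Mrpl21 (ENSMUSG00000024829.12, chromosome 19, 3282901 to 3292837, plus strand), a bacterial-type protein of the large subunit, followed. It measured 22.8, 39.2 and 31.2 TPM in MKO_PD1 tumours, against 53.5, 54.6 and 51.1 TPM in Cre_PD1 tumours. The Cre_PD1 values lay within a few TPM of each other and above every MKO_PD1 value, with a difference of -0.79 (SE 0.27, limma adjusted p = 0.168). Mrps6, a small-subunit protein of bacterial type, measured 9.90, 18.2 and 13.4 TPM in MKO_PD1 tumours, against 25.2, 23.7 and 22.8 TPM in Cre_PD1 tumours. Its groups did not overlap either, with a difference of -0.78 (SE 0.29, limma adjusted p = 0.168), and 19.9% of its exon bases are shared with another annotated gene on the same strand. Mrpl21 shares 5.82% of its exon bases with Ighmbp2 on the opposite strand, and whether counting used the strand is not given in the sources used here.

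The 8 lower members of smallest p were Mrpl45, Mrpl21, Mrps6, Mrps21 and 4 more. Mrpl9, a bacterial-type protein of the large subunit whose NRF1 motif is printed above, averaged 49.2 ± 7.67 TPM in MKO_PD1 tumours and 77.1 ± 2.85 TPM in Cre_PD1 tumours (SD, n = 3 each). Mrpl22, which lines the exit tunnel, averaged 45.6 ± 4.17 TPM in MKO_PD1 tumours and 69.8 ± 7.91 TPM in Cre_PD1 tumours. Mrps22, a small-subunit protein particular to mitochondria, averaged 12.5 ± 3.20 TPM in MKO_PD1 tumours and 20.4 ± 1.02 TPM in Cre_PD1 tumours. Mrpl24, near the tunnel exit, averaged 68.2 ± 16.6 TPM in MKO_PD1 tumours and 104 ± 5.51 TPM in Cre_PD1 tumours, and 26.3% of its exon bases are shared with a gene on the opposite strand. All 4 had separate groups, with differences between -0.60 and -0.69 and limma adjusted p-values of 0.168 or 0.169.

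Mrpl36 (ENSMUSG00000021607.9, chromosome 13, 73328513 to 73332178, plus strand, 3 exons after merging overlaps) was the single member whose groups were separate with MKO_PD1 higher on the TPM scale. It encodes a small protein of bacterial type in the large subunit. It measured 50.7, 51.4 and 40.6 TPM in MKO_PD1 tumours, against 29.0, 34.5 and 33.6 TPM in Cre_PD1 tumours. The lowest MKO_PD1 value was above the highest Cre_PD1 value. The log2 difference was 0.54 (SE 0.24, limma adjusted p = 0.181), 1.005 on the median-of-ratios scale (adjusted p = 0.121) and 0.87 when scaled to the summed members (adjusted p = 0.163). Over all alternatives its difference ran from 0.44 to 1.01 and its adjusted p was never below 0.0986.

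Mrpl27 and Mrpl50 were the other members with a difference above 0. Mrpl27, a bacterial-type protein near the site of peptide bond formation, measured 90.2, 95.5 and 89.1 TPM in MKO_PD1 tumours, against 70.6, 95.5 and 90.6 TPM in Cre_PD1 tumours. Mrpl50, particular to mitochondria, measured 54.1, 42.2 and 46.1 TPM in MKO_PD1 tumours, against 43.7, 45.1 and 43.8 TPM in Cre_PD1 tumours. Both overlapped, with differences of 0.11 (limma adjusted p = 0.744) and 0.092 (limma adjusted p = 0.776) on the TPM scale. The sign of each turned below 0 without 1 of the libraries, Cre_PD1 replicate 1 for Mrpl27 (-0.023) and MKO_PD1 replicate 1 for Mrpl50 (-0.0038).

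**Figure D3:**
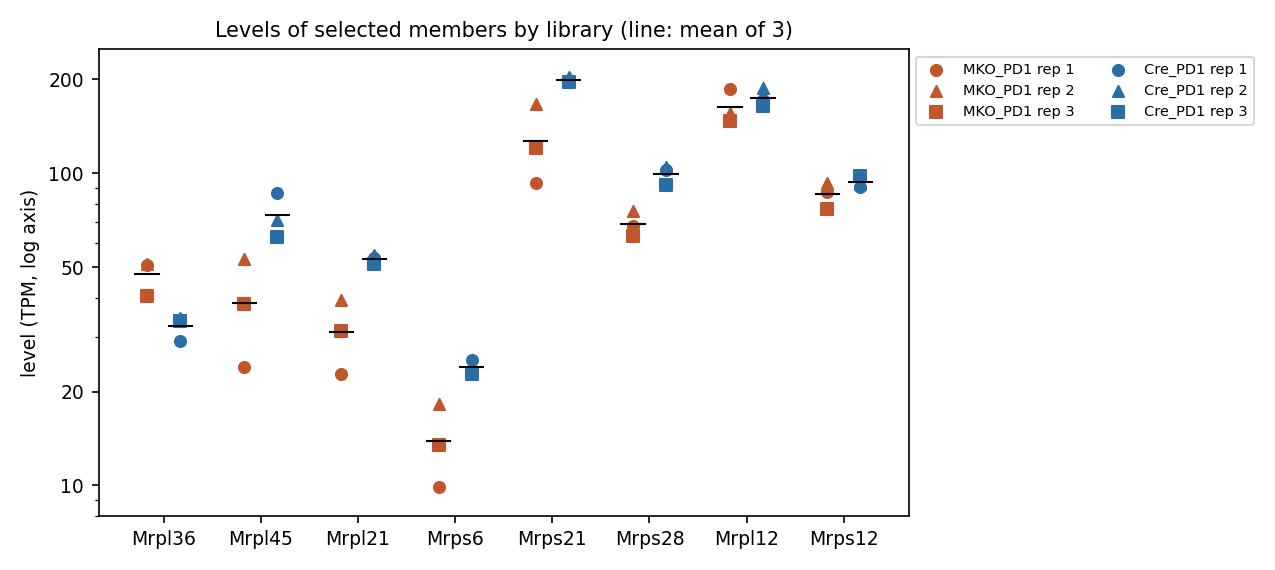
Levels of 8 members in TPM on a log axis, 1 symbol per library and a line at the mean of 3. Mrpl36 is higher in the 3 MKO_PD1 libraries, Mrpl45, Mrpl21, Mrps6, Mrps21 and Mrps28 are lower in them on this TPM scale, and Mrpl12 and Mrps12 overlap.

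Mrps28, a small-subunit protein plotted with these members and chosen after its values were seen, averaged 68.9 ± 6.37 TPM in MKO_PD1 tumours and 99.7 ± 7.05 TPM in Cre_PD1 tumours (SD, n = 3 each). Mrps12, which helps form the decoding site, measured 87.0, 92.9 and 76.9 TPM in MKO_PD1 tumours, against 90.8, 92.6 and 97.7 TPM in Cre_PD1 tumours. Its groups overlapped, with a difference of -0.13 on the TPM scale (SE 0.22, limma adjusted p = 0.671) and 0.34 on the median-of-ratios scale.

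By position in the ribosome, the 6 exit tunnel proteins had the lowest median on the TPM scale, -0.54. Of these 6, 3 (50%) had separate groups with MKO_PD1 lower, a share of 46.8% over all members and 28.9% over all genes. The 3 tested stalk proteins had a median of -0.38 with 1 separate (33.3%). The 8 proteins of the central protuberance had a median of -0.25 with 3 separate (37.5%). Among 50 tested members of the large subunit the median was -0.33 and 21 (42%) were separate and lower. In the small subunit the median was -0.40, with 15 of 26 (57.7%). On the median-of-ratios scale 1 exit tunnel protein, 0 stalk and 0 central protuberance proteins were separate and lower. There 4 members of the large subunit and 1 of the small subunit were, against 21.1% of all genes. These lists are small and share libraries, and their differences from each other were not tested.

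The 3 paralogues of the bacterial protein S18 occupy different places in the mitoribosome. Mrps18a, in the large subunit, averaged 21.4 ± 3.20 TPM in MKO_PD1 tumours and 31.2 ± 2.51 TPM in Cre_PD1 tumours (SD, n = 3 each), with separate groups and a difference of -0.53 (SE 0.24, limma adjusted p = 0.189). Mrps18b averaged 20.3 ± 3.75 TPM in MKO_PD1 tumours and 24.4 ± 2.72 TPM in Cre_PD1 tumours. Mrps18c averaged 41.1 ± 10.03 TPM in MKO_PD1 tumours and 49.2 ± 4.55 TPM in Cre_PD1 tumours. The groups of both overlapped, and their differences of -0.26 and -0.28 on the TPM scale were 0.20 and 0.19 on the median-of-ratios scale.

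Mrpl58, known for releasing peptides from stalled mitoribosomes, had a difference of -0.31 (SE 0.25, limma adjusted p = 0.385), which was 0.15 on the median-of-ratios scale. Mrps36, the dehydrogenase subunit, had one of -0.36 (SE 0.28, limma adjusted p = 0.369), which was 0.092 on the median-of-ratios scale. On the TPM scale the groups of Mrpl58 were separate with MKO_PD1 lower, and those of Mrps36 overlapped. On the median-of-ratios scale both overlapped. The least abundant members above 0 were Mrps25 and Mrps30. Mrps25, a small-subunit protein particular to mitochondria, measured 5.995, 8.90 and 6.20 TPM in MKO_PD1 tumours, against 9.33, 9.75 and 8.78 TPM in Cre_PD1 tumours. Its groups overlapped, and 69.8% of its exon bases are shared with Nr2c2 on the opposite strand. Mrps30 measured 6.13, 8.44 and 7.05 TPM in MKO_PD1 tumours, against 12.3, 10.9 and 8.35 TPM in Cre_PD1 tumours, with overlapping groups and a difference of -0.48 (SE 0.29, limma adjusted p = 0.261).

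Mrpl53, a protein at the base of the stalk, had 0 reads in all 6 libraries. A count of 0 allows up to 3 reads, or 0.290 to 0.433 TPM by library if reads on all of its exon bases were counted. Of its exon bases, 88% are shared with another gene on the same strand, and how reads on shared bases were counted is not given in the sources used here. If such reads were dropped, the limit would be higher. In all, 33 members share exon bases with another gene, 7 of them over 25% of their exon.

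Scaling each library to its own summed member level asks how the members divide that sum. On that scale 15 members were separate with MKO_PD1 lower and 15 with MKO_PD1 higher, against 15.7% and 16.9% of all genes, and no member passed the limma test (smallest adjusted p = 0.163). In the large subunit 7 were lower and 12 higher, and in the small subunit 8 were lower and 3 higher. Mrpl36 made up 1.80%, 1.45% and 1.42% of the sum in MKO_PD1 tumours, against 0.744%, 0.869% and 0.896% in Cre_PD1 tumours. Mrpl45 made up 0.855%, 1.504% and 1.34% of the sum in MKO_PD1 tumours, against 2.23%, 1.78% and 1.66% in Cre_PD1 tumours. Neither overlapped, and both kept the direction they had on the TPM scale. Mrpl27 and Mrpl50, which overlapped in TPM, were separate with MKO_PD1 higher as shares of the sum.

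The members were next set beside the other RNAs that the mitoribosome needs. The 13 mitochondrially encoded mRNAs, its templates, took up 6.23%, 4.53% and 5.41% of all TPM in MKO_PD1 tumours, against 2.48%, 3.51% and 3.85% in Cre_PD1 tumours. This sum was higher in every MKO_PD1 tumour while that of the members was lower on the TPM scale. It rests on only part of the 13. mt-Co1 averaged 19991.1 TPM in MKO_PD1 tumours and 13272.5 TPM in Cre_PD1 tumours. mt-Co2, mt-Atp6 and mt-Co3 averaged 42.3, 44.8 and 99.0 TPM in MKO_PD1 tumours, against 28.9, 29.5 and 25.7 TPM in Cre_PD1 tumours. mt-Nd3, mt-Nd4l and mt-Atp8 averaged less still, and why these were so low was not tested. The summed members thus amounted to 4.51%, 7.83% and 5.27% of the mitochondrial mRNA sum in MKO_PD1 tumours, against 15.7%, 11.3% and 9.74% in Cre_PD1 tumours, without overlap. This ratio does not depend on how libraries are scaled. The hepatocyte share given above was also highest in MKO_PD1 replicates 1 and 3 and lowest in Cre_PD1 replicate 1, and its part in the ratio was not tested.

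Of the 12 mitochondrial mRNAs tested on the TPM scale, 9 (75%) were separate with MKO_PD1 higher and 0 lower, against 10.1% and 28.9% of all genes. Their median was 0.82. On the median-of-ratios scale all 13 passed the filter, with a median of 1.26, 12 above 0 and 1 below. There 8 were separate and higher and 0 lower, against 18.9% and 21.1% of all genes. mt-Nd6, a subunit of complex I, measured 3636, 2757 and 3418 TPM in MKO_PD1 tumours, against 1129, 1845 and 2122 TPM in Cre_PD1 tumours. Its groups did not overlap, with a difference of 0.98 (SE 0.38, limma adjusted p = 0.168). mt-Nd5, which overlaps mt-Nd6 on the opposite strand and encodes another subunit of complex I, had a difference of 0.87 (SE 0.34, limma adjusted p = 0.169). Whether counting used the strand is not given in the sources used here, so reads from the opposite strand may enter these levels. The ribosomal RNAs mt-Rnr2 and mt-Rnr1 averaged 414 ± 80.2 TPM and 613 ± 148 TPM in MKO_PD1 tumours, against 177 ± 50.9 TPM and 311 ± 55.3 TPM in Cre_PD1 tumours (SD, n = 3 each). Both had separate groups, with differences of 1.25 (SE 0.31) and 0.97 (SE 0.30) and a limma adjusted p of 0.168. The libraries held polyadenylated RNA, so ribosomal RNA was seen only as far as that selection let it through.

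Cytosolic ribosomal protein genes, the counterpart in the cytosol, had a lower median than the members on both scales, -0.84 on the TPM scale and -0.37 on the median-of-ratios scale. Of the 79 tested, 39 (49.4%) were separate with MKO_PD1 lower and 1 (1.27%) higher in TPM, against 28.9% and 10.1% of all genes. On the median-of-ratios scale 17 were separate and lower and 1 higher, against 21.1% and 18.9% of all genes. They took up 3.94%, 7.50% and 5.30% of all TPM in MKO_PD1 tumours, against 11.5%, 10.1% and 7.82% in Cre_PD1 tumours, and these groups did not overlap. The summed members amounted to 7.14%, 4.73% and 5.38% of that sum in MKO_PD1 tumours, against 3.38%, 3.92% and 4.80% in Cre_PD1 tumours, and the groups overlapped. The 79 tested nuclear genes of the respiratory chain, whose products join the mitochondrially made subunits, had a median of -0.18 on the TPM scale and 0.29 on the median-of-ratios scale. In TPM 34 (43.0%) were separate and lower and 4 (5.06%) higher, and on the median-of-ratios scale 1 was lower and 3 higher.

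A further 5 proteins of the mitoribosome do not carry an Mrp name. All 5 had separate groups with MKO_PD1 lower on the TPM scale, where 28.9% of all genes did, and 0 of the 5 on the median-of-ratios scale. Their median was -0.52 on the TPM scale and -0.068 on the median-of-ratios scale. Dap3, a GTP-binding protein of the small subunit, measured 20.01, 34.1 and 25.8 TPM in MKO_PD1 tumours, against 56.4, 49.5 and 42.8 TPM in Cre_PD1 tumours. Gadd45gip1, a large-subunit protein, measured 26.3, 29.0 and 22.4 TPM in MKO_PD1 tumours, against 43.9, 43.5 and 42.6 TPM in Cre_PD1 tumours. No tumour of one group reached the other for either gene, and the differences were -0.89 (SE 0.28) and -0.73 (SE 0.23), each with a limma adjusted p of 0.168.

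Assembly and rRNA modification factors, 27 tested, had 12 genes (44.4%) separate with MKO_PD1 lower and 0 higher on the TPM scale. For this list and those below, the shares of all genes were 28.9% and 10.1% on that scale. On the median-of-ratios scale 2 were lower and 4 higher, where 21.1% and 18.9% of all genes were. The median was -0.38 on the TPM scale and 0.045 on the median-of-ratios scale. Mettl15, a methyltransferase for the small-subunit rRNA, averaged 3.11 ± 0.778 TPM in MKO_PD1 tumours and 5.67 ± 0.240 TPM in Cre_PD1 tumours (SD, n = 3 each). Dhx30, a helicase of large-subunit assembly, averaged 14.4 ± 5.51 TPM in MKO_PD1 tumours and 24.1 ± 2.45 TPM in Cre_PD1 tumours. Both had separate groups, with differences of -0.72 (limma adjusted p = 0.169) and -0.77 (limma adjusted p = 0.175).

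Translation factors, 20 tested, had 7 genes (35%) separate and lower and 2 (10%) separate and higher on the TPM scale. On the median-of-ratios scale 1 was lower and 6 higher. The median of these factors was -0.19 on the TPM scale and 0.22 on the median-of-ratios scale. Their smallest p-values belonged to Mtfmt, which formylates the initiator tRNA, at -0.65 (limma adjusted p = 0.213), and Slirp, an RNA-binding partner of Lrpprc, at -0.47 (limma adjusted p = 0.291). The groups of both overlapped. Aminoacyl-tRNA synthetases, 17 tested, had 7 genes (41.2%) separate and lower and 0 higher on the TPM scale, and 2 lower and 0 higher on the median-of-ratios scale. Their median was -0.39 on the TPM scale and 0.032 on the median-of-ratios scale. Wars2, which charges the tryptophan tRNA, averaged 4.46 ± 1.28 TPM in MKO_PD1 tumours and 8.95 ± 2.19 TPM in Cre_PD1 tumours (SD, n = 3 each). Tars2, which charges the threonine tRNA, averaged 18.7 ± 7.55 TPM in MKO_PD1 tumours and 32.5 ± 2.72 TPM in Cre_PD1 tumours. Their groups were separate, with limma adjusted p-values of 0.168 and 0.169.

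Among 11 genes of mitochondrial DNA transcription and replication, 4 (36.4%) were separate and lower and 0 higher on the TPM scale. On the median-of-ratios scale 0 were lower and 0 higher. The median was -0.28 on the TPM scale and 0.17 on the median-of-ratios scale. Mterf2, which binds mitochondrial DNA, and Mgme1, an exonuclease of its replication, had the smallest p-values, with differences of -0.73 (limma adjusted p = 0.195) and -0.58 (limma adjusted p = 0.275) and overlapping groups. Among 11 regulators of nuclear genes for mitochondria, 3 (27.3%) were separate and lower and 0 higher on the TPM scale, close to the 28.9% of all genes that were lower. On the median-of-ratios scale 3 were lower and 1 higher. The median was -0.60 on the TPM scale and -0.14 on the median-of-ratios scale. Yy1, a factor known to act on such genes, measured 34.6, 70.2 and 52.4 TPM in MKO_PD1 tumours, against 104, 80.7 and 90.7 TPM in Cre_PD1 tumours. Gabpb1, the partner subunit of the GABPA protein, averaged 8.25 ± 3.45 TPM in MKO_PD1 tumours and 14.8 ± 0.339 TPM in Cre_PD1 tumours (SD, n = 3 each). Both were separate between the groups, with differences of -0.84 each (limma adjusted p = 0.168 and 0.169). No gene in any of these lists passed the limma test at 0.05 over all genes.

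**Figure D4:**
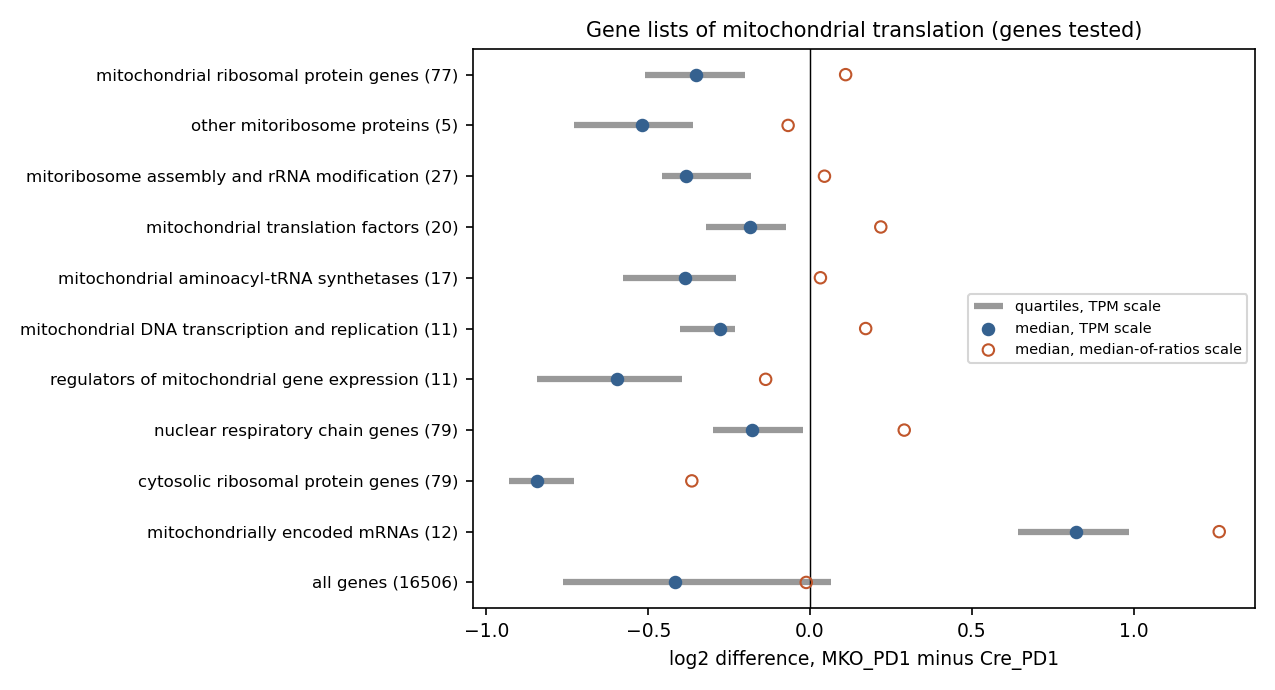
Median log2 difference of each gene list, MKO_PD1 minus Cre_PD1, on the TPM scale (filled, with quartiles as grey bars) and on the median-of-ratios scale (open), with the number of genes tested on the TPM scale in brackets. On both scales the mitochondrially encoded mRNAs lie to the right of the other lists drawn and the cytosolic ribosomal protein genes to the left (the 2 mitochondrial rRNAs are not drawn), while the members lie at -0.35 on the TPM scale and at 0.11 on the other.

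Many members share a start region with a neighbour read in the opposite direction. For 25 of the 78 members (32.1%) the 5′ end of another protein-coding gene on the opposite strand lay within 500 bases, against 1660 of 13175 tested protein-coding genes (12.6%). RefSeq gave starts within the same distance for 17 of the 20 pairs in which both genes had a RefSeq start. For 22 of the 25 members the partner had a difference below 0 on the TPM scale, where 72.9% of all genes did. The median of the partners was -0.49, against -0.42 over all genes. The pair of Mrps11 and Mrpl46, both members, enters these counts once from each side. Of the 25 partners, 4, Mrps11 among them, were separate with MKO_PD1 lower and 2 with MKO_PD1 higher, where 28.9% and 10.1% of all genes were.

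One of these 2 partners was Ndufs6, a subunit of complex I that faces Mrpl36 and is named here after its values were seen. In GENCODE the exons of both genes share 30 bases at their 5′ ends, which is 2.58% of the exon bases of Mrpl36. The RefSeq starts lie 2527 bases apart, so this is among the 3 pairs that RefSeq does not place within 500 bases. Ndufs6 measured 114, 95.8 and 102 TPM in MKO_PD1 tumours, against 81.9, 94.0 and 85.4 TPM in Cre_PD1 tumours. Its groups did not overlap, and its difference of 0.25 (SE 0.22, limma adjusted p = 0.426) had the sign of that of Mrpl36. In the pair that entered the counts from each side, both partners are members. Mrps11, of the small subunit, had a difference of -0.52 with separate groups, and Mrpl46, of the large subunit, one of -0.085 with overlapping groups on the TPM scale. Both overlapped on the median-of-ratios scale, and the difference between the pair was not tested.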

How the data were processed

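Polyadenylated RNA of 6 mouse liver tumours was sequenced, 3 in MKO_PD1 and 3 in Cre_PD1, grouped by the sample titles. Per the submitters' processing notes, STAR 2.7.10a and featureCounts 2.0.3 of Subread were used with mm10. The values the authors deposited, although named TPM, are a signal per exon length that sums to 70363 to 105281 per library. How they were scaled is not given in the sources used here. Multiplied by GENCODE M21 exon length and divided by a shared constant of 8.03, they gave whole reads within 0.001 in all 6 libraries for 29352 of 29798 genes (98.5%). These recovered reads served limma voom as an alternative.

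Each library was rescaled to 1000000. Genes reaching 1 TPM in 3 or more libraries were tested on log2(TPM + 1) by limma 3.58.1 under R 4.3.3 (moderated, with trend and no block), at a threshold of 0.05 after Benjamini-Hochberg adjustment across the genes tested. The code was tested on simulated data. The deviations of same-numbered replicates from their group means had correlations of -0.42, -0.26 and 0.049, so the numbers were not taken to pair tumours. Named members are the 8 higher and 8 lower of smallest p (3 were higher), the 5 highest and 3 lowest in level, and 8 fixed by name, with at most 2 genes per pathway list. The members and lists were chosen with earlier results of these data known.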

Additional observations from a re-analysis of the deposited data

How the results depend on the processing

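Settings were changed one at a time, except that voom on reads also changed the scaling. Fitting the replicate number as a block, although the numbers do not pair the tumours, gave 0 members and 0 genes passing, with the median of the members at -0.35. On the median-of-ratios scale 1 gene passed, the median of the members was 0.11, and 5 members were separate and lower and 3 higher. There Mrpl12 (0.37), Mrpl34 (0.11), Mrpl14 (0.14), Mrpl52 (0.15), Mrps25 (0.050), Mrps18b (0.20), Mrps18c (0.19), Mrps12 (0.34), Mrpl58 (0.15) and Mrps36 (0.092) turned above 0. Limma voom on reads, with library sizes by median of ratios, gave 0 genes, a median of 0.12, 5 members lower and 4 higher, and turned the same 10 members (0.41, 0.12, 0.15, 0.17, 0.056, 0.21, 0.19, 0.35, 0.15 and 0.11 in that order). Quantile normalization gave 0 genes, a median of -0.0011, 11 members lower and 4 higher, and turned Mrpl12 (0.073), Mrps18b (0.14), Mrps18c (0.13), Mrps12 (0.18), Mrpl58 (0.089) and Mrps36 (0.046). Scaled to the summed members, which centres the list by construction, the median was -0.025, with 15 members lower and 15 higher. There Mrpl12 (0.24), Mrpl14 (0.0045), Mrpl52 (0.016), Mrps18b (0.067), Mrps18c (0.058), Mrps12 (0.21) and Mrpl58 (0.021) turned. Values as deposited, which are not scaled to the depth of each library, left 15 members separate and lower and turned Mrpl12 (0.018). Taking out hepatocyte and mitochondrially encoded genes gave a median of -0.19, a ratio of summed shares of 0.888 and 2 members higher, and turned Mrpl12 (0.064) and Mrps12 (0.037). No filter on low values, or one of 5 TPM, gave 0 genes. For these scales and filters the cause was not tested.

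Without 1 library, the genes passing ranged from 0 to 7314, members passing lower from 0 to 24, members separate and lower from 36 to 67 and higher from 1 to 2, the extremes coming without the library labelled MKO_PD1 replicate 2. Mrpl50 turned to -0.0038 without MKO_PD1 replicate 1 and Mrpl27 to -0.023 without Cre_PD1 replicate 1. Chosen after seeing the data, a fit without MKO_PD1 replicates 1 and 3 gave 1 gene, a median of -0.086, 8 members separate and higher and a ratio of summed shares of 0.915. In it Mrpl50 (-0.066), Mrps18c (0.099), Mrps36 (0.066) and Mgme1 (0.022) turned, and the lone sample is assumed to vary like the others. Also chosen after seeing the data, the hepatocyte list mean as a covariate gave 0 genes and a median of -0.12, with Mrpl27 (-0.11), Mrpl50 (-0.084), Mrpl52 (8.4e-06), Mrps18b (0.0090), Mrps18c (0.10) and Mrps36 (0.11) turned. Mrpl36 stayed above 0 and Mrpl45, Mrpl21, Mrps6 and Mrps21 below 0 under every setting named here. Both the 3 tumours per group and read depth limit what can be told apart, and the limit given for a count of 0 covers counting error only, as reads carry no molecular identifiers.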
